A study of Mus musculus with 8 samples.

Results

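The genes described here are those of the proteasome, the barrel-shaped protease that degrades ubiquitin-tagged proteins, together with its interferon-linked subunits. They were chosen by symbol, as every row of the raw count table named Psm followed by one of the letters a to g and a digit. The rule found 48 of 12211 rows, and all 48 passed the filter on low counts that left 11909 genes to test. The libraries came from mouse embryonic fibroblasts, connective tissue cells cultured from embryos, that were either PUS10KO (4 libraries) or control (4 libraries, genotype given as WT). PUS10 converts uridine to pseudouridine in RNA, and the series title places the study in tRNA fragmentation and inflammation driven by retrotransposons. Both genotypes were grown in the same serum-containing medium, and the labels name no treatment. The labels do not give the knockout allele, the number of clones or embryos, or whether libraries of a genotype came from separate cultures, so a p-value covers only the variation among these libraries, which may be technical.

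The proteasome core is a stack of rings in which alpha subunits form the gate and beta subunits hold the proteolytic sites. A regulatory cap of ATPases and non-ATPases binds ubiquitinated substrates, unfolds them and feeds them into the core. In cells exposed to interferon, Psmb8, Psmb9 and Psmb10 replace the constitutive catalytic subunits Psmb5, Psmb6 and Psmb7 in newly built cores, which are then called immunoproteasomes, and Psme1 and Psme2 form an alternative activator ring. The peptides made this way are carried into the endoplasmic reticulum by the Tap transporter for loading on MHC class I molecules.

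Pus10 itself was at 14.3, 15.2, 14.2 and 11.5 CPM (counts scaled to a common library size by TMM) in PUS10KO libraries 1 to 4, against 40.9, 51.5, 40.1 and 51.8 CPM in control libraries 1 to 4. The groups did not overlap, and transcripts of the gene were still counted in every PUS10KO library (log2 fold change -1.74, SE 0.15, adjusted p = 0.000189, Benjamini-Hochberg, from edgeR's quasi-likelihood test). Total counts ran between 17561114 and 24563499 per library. Genotype separated the libraries along the leading axis of a principal component analysis (56.1% of variance), and the next axis (26.1%) set apart libraries numbered 1 and 2 from those numbered 3 and 4 in both genotypes. Of 11 fibroblast markers, 4 fell (Col1a2, Vim, Pdgfrb and Thy1) and none rose, beside 7.11% and 5.90% of all genes tested. The summed level of the 11 was 10933 to 16467 CPM in PUS10KO libraries and 17230 to 21338 CPM in control libraries. Pdgfra, in the same list, had a log2 fold change of 1.02 and was higher in PUS10KO within all 4 numbers (adjusted p = 0.0605 by edgeR, and 0.00247 with the block). When 1 library was left out, the Col1a2 call was kept only without PUS10KO library 4 or control library 2 (adjusted p otherwise up to 0.12), the Vim call only without control library 1 or 4 (up to 0.0796) and the Pdgfrb call only without PUS10KO library 1 (up to 0.128), while the Thy1 call was kept in all 8 cases. Thy1, a surface marker of fibroblasts, had 1, 1, 0 and 0 counts in PUS10KO libraries, against 449, 421, 404 and 452 counts in control libraries. The Y-linked gene Eif2s3y had 5989 counts over the PUS10KO libraries and 0 over the control libraries, so genotype and sex-chromosome content cannot be told apart in any comparison below. In bulk RNA, fewer cells of a type and less RNA per cell cannot be told apart either.

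The promoters of 5 catalytic-site and activator genes are shown because the results turn on how the interferon-linked subunits and their constitutive counterparts differ. Each line gives 150 bases before and 30 bases after the start of transcription, 5′ to 3′ on the gene's strand, from RefSeq on GRCm38.p6, and capitals mark one match to a motif searched on both strands.
Psmb9 promoter, chr17:34187301-34187480, minus strand: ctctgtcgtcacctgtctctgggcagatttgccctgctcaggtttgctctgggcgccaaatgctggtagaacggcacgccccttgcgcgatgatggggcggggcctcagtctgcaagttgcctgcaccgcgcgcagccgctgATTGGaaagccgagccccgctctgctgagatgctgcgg
Psmb8 promoter, chr17:34198045-34198224, plus strand: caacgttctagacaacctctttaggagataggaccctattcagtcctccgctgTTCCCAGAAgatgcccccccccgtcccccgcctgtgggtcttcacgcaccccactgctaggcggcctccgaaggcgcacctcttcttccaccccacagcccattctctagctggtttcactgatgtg
Psme1 promoter, chr14:55578344-55578523, plus strand: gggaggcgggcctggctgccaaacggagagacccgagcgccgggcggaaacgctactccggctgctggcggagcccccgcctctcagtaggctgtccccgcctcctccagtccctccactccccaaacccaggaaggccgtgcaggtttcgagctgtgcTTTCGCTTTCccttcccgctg
Psmb5 promoter, chr14:54617966-54618145, minus strand: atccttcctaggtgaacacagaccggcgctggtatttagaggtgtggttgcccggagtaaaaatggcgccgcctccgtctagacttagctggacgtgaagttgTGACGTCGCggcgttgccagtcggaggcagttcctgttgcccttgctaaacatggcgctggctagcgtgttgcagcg
Psmb6 promoter, chr11:70525207-70525386, plus strand: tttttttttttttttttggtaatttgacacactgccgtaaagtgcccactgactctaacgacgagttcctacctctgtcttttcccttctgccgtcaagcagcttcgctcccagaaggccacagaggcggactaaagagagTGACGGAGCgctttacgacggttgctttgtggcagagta

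The capitals mark a CCAAT box on the opposite strand in Psmb9 and a gamma-activated site (TTCNNNGAA, the motif of Stat dimers) in Psmb8. In Psme1 they mark the core of an interferon-stimulated response element (a pair of GAAA repeats with 2 bases of any kind between them, bound by Irf proteins) on the opposite strand, and in Psmb5 and Psmb6 the core of an antioxidant response element (TGACNNNGC). A RefSeq window of 250 bases before to 50 after the start was at hand for 41 of the 48 genes. The interferon-stimulated core was in 5 of these 41 windows (Psmd4, Psme1, Psmd9, Psmb3 and Psmg4), against 3.49% of all 27025 windows and 2.89% of the 9512 windows of tested genes. The gamma-activated site was in 3 (Psmd2, Psmg1 and Psmb8), against 8.47% of all windows and 6.78% of those of tested genes. The antioxidant core was in 6 (Psmb6, Psmd12, Psmc6, Psmb5, Psmd9 and Psme4), against 12.5% and 14.8%, and the CCAAT box was in 14, against 37.9% and 39.5%. A match describes these letters only. By RefSeq, Psmb9 and the transporter gene Tap1 are transcribed in opposite directions from start sites 226 bases apart, and their windows share 275 bases. The GENCODE M21 annotation used for gene positions below differs for Psmb9, Psmb8 and Psme1. In it Psmb9 runs to 34187764, past its RefSeq start at 34187330 and past the start of Tap1. Psmb8 begins there at 34197721 and Psme1 at 55578123, before the printed bases of each. By that annotation the printed bases of Psmb9, Psmb8 and Psme1, with their marked motifs, lie within the genes.

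Across the family, 6 of 48 genes rose in PUS10KO libraries and 2 fell, while 13.0% of all genes tested were called (5.90% rose and 7.11% fell). The 6 that rose were Psmb8, Psmb9, Psme1, Psme2, Psme2b and Psma1, and the 2 that fell were Psma3 and Psmc1. Among the 5 interferon-linked genes 4 rose and none fell, with a median log2 fold change of 0.98, whereas among the other 43 genes 2 rose and 2 fell, with a median of 0.15. Over all genes tested the median was 0.01. Fold changes were positive for 39 of the 48 genes, against 6070 of 11909 genes in all. The library number was taken to pair the samples, from the titles' numbers and from these data, since the labels do not say what a number shares. With it as a block in the same model 16 members rose and 4 fell, where 39.0% of all genes were called (19.1% rose and 19.9% fell). The 8 members called without the block were all called with it. In 7 members every PUS10KO library was above every control library and in 3 every one was below, against 9.70% and 10.6% of all genes tested.

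**Figure D1:**
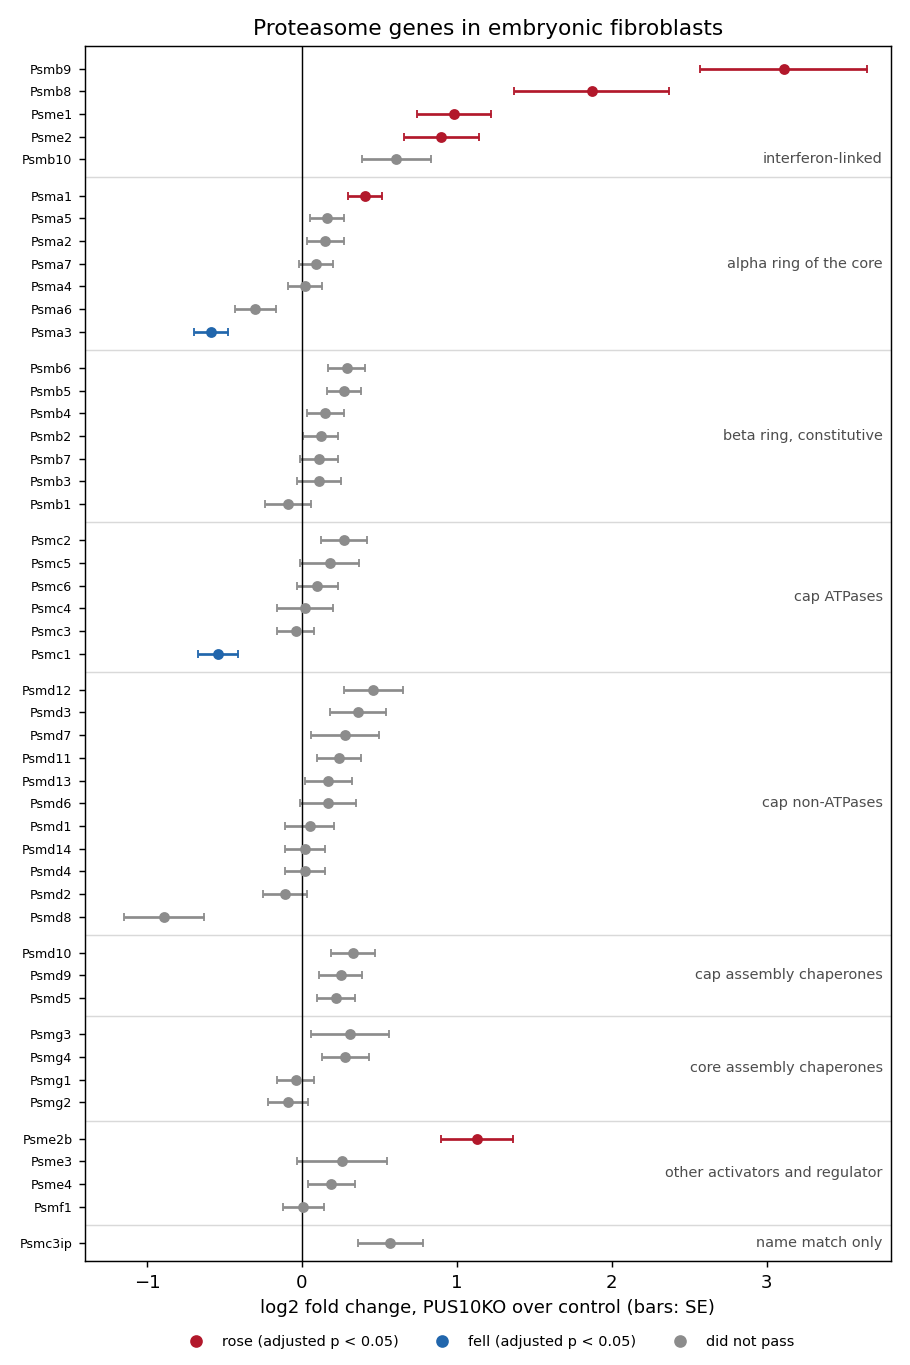
Log2 fold change of each of the 48 proteasome genes, PUS10KO over control, with its standard error, grouped by role (red, rose; blue, fell; grey, did not pass); 4 libraries per genotype. The interferon-linked genes and Psme2b lie farthest to the right, up to 3.11 for Psmb9, and Psmd8 lies farthest to the left at -0.89.

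Psmb9, the interferon-induced subunit that takes the place of the caspase-like subunit Psmb6, showed the highest log2 fold change of the family. It lies on chromosome 17 at 34181987 to 34187764, minus strand, of GRCm38 (ENSMUSG00000096727.3, GENCODE M21). It had 4.08, 2.07, 2.41 and 4.60 CPM in PUS10KO libraries 1 to 4, against 0.438, 0.0547, 0.361 and 0.622 CPM in control libraries 1 to 4. These are 74, 52, 57 and 85 counts in PUS10KO libraries and 9, 1, 7 and 13 counts in control libraries. Every PUS10KO library was above every control library, and control library 2, with a single count, was the lowest of the 8. The mean was 3.29 ± 1.24 CPM in PUS10KO and 0.369 ± 0.237 CPM in control (SD, n = 4 each), a log2 fold change of 3.11 (SE 0.54, adjusted p = 0.00606 by edgeR's quasi-likelihood test). Within library numbers 1 to 4 the log2 difference was 3.22, 5.24, 2.74 and 2.89, PUS10KO over control. The call held when any 1 library was left out. Of the 1352 exon bases of Psmb9 in GENCODE M21, 212 overlap exons of Tap1 on the opposite strand, an overlap that the RefSeq start sites do not give. No source used here states the strand setting or the annotation of the counting, so part of the Psmb9 counts cannot be told apart from Tap1. Per 100 counts of Tap1, Psmb9 had 5.26, 4.88, 5.99 and 9.18 counts in PUS10KO libraries, against 2.93, 0.671, 2.31 and 3.59 counts in control libraries.

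Psmb8, which replaces the chymotrypsin-like subunit Psmb5, lies on the same chromosome at 34197721 to 34201454, plus strand (ENSMUSG00000024338.15). It had 8.87, 2.98, 4.14 and 7.68 CPM in PUS10KO libraries 1 to 4, against 1.85, 0.493, 1.80 and 2.25 CPM in control libraries 1 to 4. The groups did not overlap, but PUS10KO library 2 lay close to the highest control library, and control library 2 was again the lowest. The mean was 5.92 ± 2.81 CPM in PUS10KO and 1.60 ± 0.764 CPM in control (SD, n = 4 each), a log2 fold change of 1.87 (SE 0.50, adjusted p = 0.0390 by edgeR's quasi-likelihood test). The log2 difference within library numbers 1 to 4 was 2.26, 2.60, 1.20 and 1.77. The call was lost when any 1 library other than PUS10KO library 2 was left out, with adjusted p-values of up to 0.0901 and log2 fold changes between 1.58 and 2.10. By limma voom the adjusted p was 0.0587. Of its 1628 exon bases, 186 overlap the antisense transcript Gm20496, so part of its counts cannot be told apart from that transcript.

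Psmb10, which replaces the trypsin-like subunit Psmb7 and lies on chromosome 8 at 105935735 to 105938444, minus strand (ENSMUSG00000031897.9), did not pass the test. It had 35.9, 27.4, 34.2 and 45.6 CPM in PUS10KO libraries 1 to 4, against 17.1, 20.0, 26.7 and 29.6 CPM in control libraries 1 to 4. The groups overlapped, since PUS10KO library 2 was below control library 4, while the PUS10KO library was the higher one within each of the 4 numbers. The mean was 35.8 ± 7.50 CPM in PUS10KO and 23.4 ± 5.79 CPM in control (SD, n = 4 each), a log2 fold change of 0.61 (SE 0.22, adjusted p = 0.105 by edgeR's quasi-likelihood test). With the library number as a block the adjusted p was 0.0059.

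**Figure D2:**
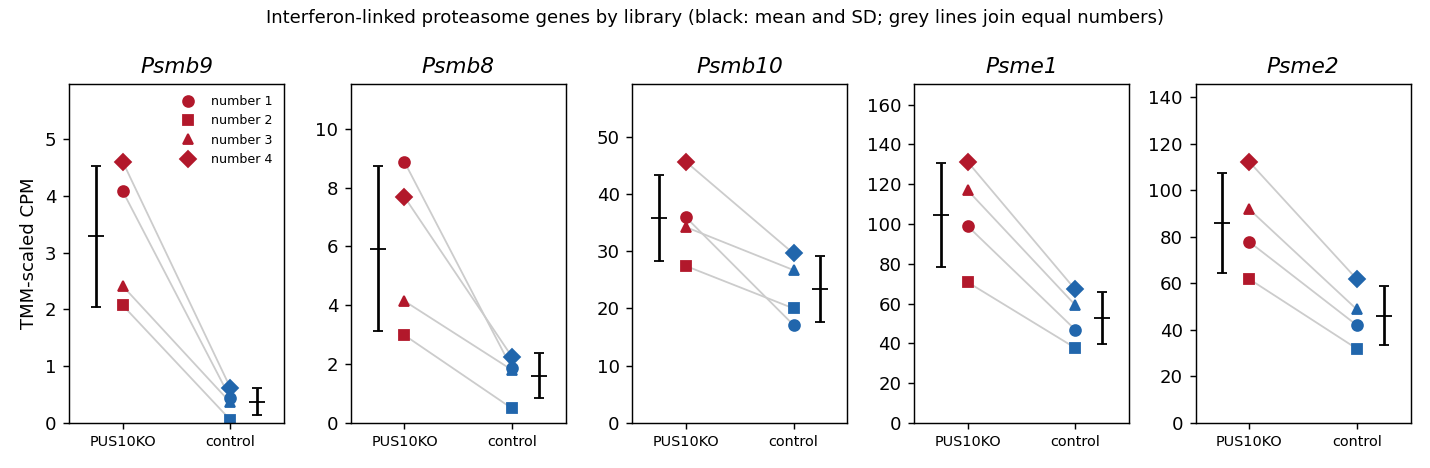
TMM-scaled CPM of the 5 interferon-linked genes in each library (linear axes that start at 0), PUS10KO left of control, with symbols for the library number, grey lines joining equal numbers, and the mean and SD in black. Psmb9, Psmb8 and Psme1 show no overlap between genotypes, Psmb10 and Psme2 do, and within every number the PUS10KO library is the higher one in each gene.

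The activator genes Psme1 and Psme2, which encode the alpha and beta subunits of the interferon-linked activator ring, lie close together on chromosome 14. Psme1 (55578123 to 55581529, plus strand, ENSMUSG00000022216.17) had 98.9, 70.7, 116.9 and 131.2 CPM in PUS10KO libraries 1 to 4, against 46.9, 37.7, 59.3 and 67.1 CPM in control libraries 1 to 4. Psme2 (55587441 to 55591113, minus strand, ENSMUSG00000079197.10) had 77.8, 61.8, 91.8 and 112.2 CPM in PUS10KO libraries 1 to 4, against 42.0, 31.9, 48.8 and 61.8 CPM in control libraries 1 to 4. For Psme1 the groups did not overlap, and for Psme2 they met at PUS10KO library 2 and control library 4, with number 2 the lowest and number 4 the highest in both genotypes. Psme1 averaged 104.4 ± 26.1 CPM in PUS10KO and 52.8 ± 13.0 CPM in control, with a log2 fold change of 0.98 (SE 0.24, adjusted p = 0.0257 by edgeR's quasi-likelihood test). Psme2 averaged 85.9 ± 21.4 CPM in PUS10KO and 46.1 ± 12.6 CPM in control, with a log2 fold change of 0.90 (SE 0.24, adjusted p = 0.0398 by edgeR's quasi-likelihood test). Within library numbers 1 to 4 the log2 difference was 1.08, 0.91, 0.98 and 0.97 for Psme1 and 0.89, 0.95, 0.91 and 0.86 for Psme2. Their ratio overlapped between genotypes, with 114.4 to 127.4 counts of Psme1 per 100 counts of Psme2 in PUS10KO libraries and 108.5 to 121.6 in control libraries. The Psme1 call was lost without PUS10KO library 3 or 4 or control library 1, 2 or 3 (adjusted p up to 0.0703 by edgeR), and the Psme2 call was lost without any 1 library other than PUS10KO library 2 or control library 4 (up to 0.0967). With the library number as a block, adjusted p was 4.59e-05 for Psme1 and 6.42e-05 for Psme2. With upper-quartile scaling Psme2 missed the threshold.

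Psme2b, annotated on chromosome 11 at 48945354 to 48946190, minus strand (ENSMUSG00000078153.3), had 4.74, 2.98, 4.18 and 4.33 CPM in PUS10KO libraries 1 to 4, against 1.85, 1.75, 1.91 and 1.87 CPM in control libraries 1 to 4. It rose (log2 fold change 1.13, SE 0.23, adjusted p = 0.0120 by edgeR's quasi-likelihood test), with no overlap, and the call held without any 1 library. Its transcript is 99.4% identical to that of Psme2 over 794 aligned columns, so the authors' counting could have split reads between these copies and its value is uncertain. Per 100 counts of Psme2 it had 6.09, 4.83, 4.55 and 3.86 counts in PUS10KO libraries, against 4.41, 5.49, 3.91 and 3.02 counts in control libraries, ranges that overlap.

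Blood cells carry immunoproteasomes without interferon, so their markers are given beside these genes. Of 14 blood cell and macrophage markers 4 were tested (Cd14, Cd68, Csf1r and Lyz2), and their summed level was 13.8 to 20.2 CPM in PUS10KO libraries and 7.55 to 12.4 CPM in control libraries. Cd14, a co-receptor of bacterial lipopolysaccharide, rose, to 12.8 ± 3.37 CPM in PUS10KO against 3.09 ± 0.862 CPM in control (SD, n = 4 each; adjusted p = 0.00191 by edgeR's quasi-likelihood test). The other 3 did not pass the test and had negative log2 fold changes, of -1.32 for Lyz2 (no overlap, adjusted p = 0.157 by edgeR, and 0.0108 with the block), -0.37 for Cd68 and -0.34 for Csf1r. Without Cd14 the summed level was 2.51 to 6.67 CPM in PUS10KO libraries and 5.0 to 9.05 CPM in control libraries. The remaining 10 of the list were not analysed here. Whether such cells take a part in the interferon-linked result was not tested.

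The constitutive counterparts of the replaced sites did not pass the test. Psmb5 had 121.7, 121.7, 99.7 and 101.6 CPM in PUS10KO libraries 1 to 4, against 90.2, 88.3, 95.0 and 96.4 CPM in control libraries 1 to 4 (log2 fold change 0.27, SE 0.11, adjusted p = 0.178 by edgeR's quasi-likelihood test). Psmb6 had 237.7, 250.8, 248.1 and 256.9 CPM in PUS10KO libraries 1 to 4, against 177.8, 195.3, 211.7 and 229.8 CPM in control libraries 1 to 4 (log2 fold change 0.29, SE 0.12, adjusted p = 0.151, and 0.0206 with the library number as a block). For both genes each PUS10KO library was above each control library, and Psmb6 was called by DESeq2 (adjusted p = 0.048). Psmb7 averaged 253.8 ± 18.0 CPM in PUS10KO and 235.2 ± 22.1 CPM in control (SD, n = 4 each), with overlapping groups (log2 fold change 0.11, SE 0.12, adjusted p = 0.605). Of its 1160 exon bases, 405 overlap Nek6 on the opposite strand.

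The share of interferon-linked to constitutive transcript within each library does not depend on how libraries are scaled. Per 100 counts of Psmb5, Psmb8 had 7.29, 2.45, 4.15 and 7.57 counts in PUS10KO libraries 1 to 4, against 2.05, 0.558, 1.90 and 2.33 counts in control libraries 1 to 4. Per 100 counts of Psmb6, Psmb9 had 1.71, 0.825, 0.970 and 1.79 counts in PUS10KO libraries, against 0.246, 0.028, 0.170 and 0.271 counts in control libraries. Per 100 counts of Psmb7, Psmb10 had 14.0, 9.90, 13.7 and 19.5 counts in PUS10KO libraries, against 7.99, 7.51, 11.4 and 13.1 counts in control libraries. The first and the second ratio did not overlap between genotypes and the last did. The mean log2 ratio was higher in PUS10KO by 1.70 for Psmb8 to Psmb5 and by 3.23 for Psmb9 to Psmb6, each with a two-sided exact permutation p of 0.0286, the smallest that 8 libraries allow, and 0.0429 after Benjamini-Hochberg adjustment over 3 ratios. For Psmb10 to Psmb7 the difference was 0.51 (exact permutation p = 0.143, adjusted 0.143). Both calls were lost without PUS10KO library 4 or without any 1 control library (exact permutation, adjusted p = 0.0857). Leaving out a library cannot make these ratios overlap, and the test over 7 libraries has few possible p-values, so the loss does not mean overlap. An exact sign-flip test over the 4 pairs gave an adjusted p of 0.125, the smallest it allows. Without control library 2, which held a single Psmb9 count, the log2 difference was 2.48 for Psmb9 to Psmb6 and 1.22 for Psmb8 to Psmb5. Per kilobase of exon the interferon-linked transcript stayed below its counterpart in both genotypes, at 2.96 per 100 in PUS10KO and 0.944 per 100 in control for Psmb8, 0.782 and 0.106 for Psmb9, and 12.6 and 8.85 for Psmb10.

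**Figure D3:**
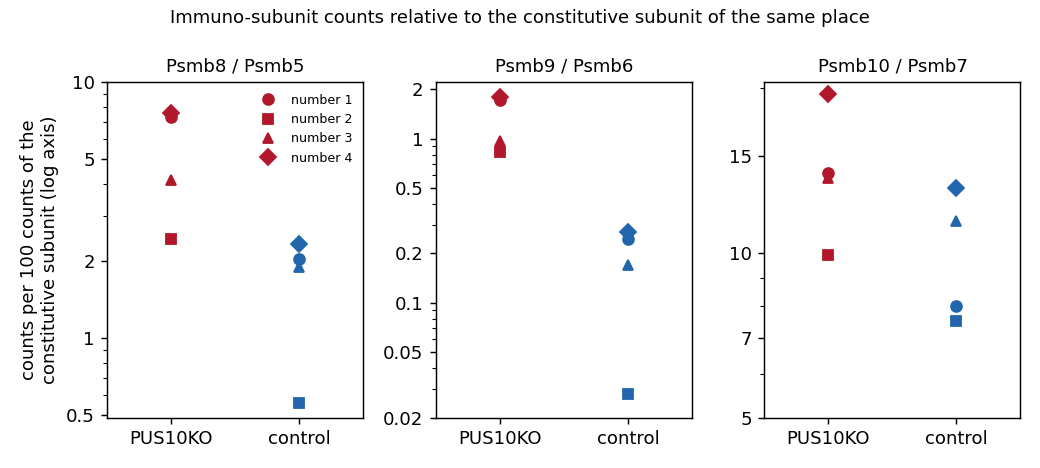
Counts of each interferon-linked catalytic subunit per 100 counts of the constitutive subunit it replaces (log axes), 1 symbol per library, PUS10KO left of control. Psmb8 to Psmb5 and Psmb9 to Psmb6 do not overlap between genotypes, and Psmb10 to Psmb7 does.

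In the alpha ring of the core, which gates substrate entry, 1 of 7 tested subunits rose and 1 fell, beside 5.90% and 7.11% of all genes tested. The median log2 fold change of the ring was 0.09. Psma1 (chromosome 7, 114264606 to 114276118, minus strand) had 192.7, 218.3, 195.5 and 197.8 CPM in PUS10KO libraries 1 to 4, against 138.0, 157.3, 149.8 and 159.0 CPM in control libraries 1 to 4, without overlap. Its log2 fold change was 0.41 (SE 0.11, adjusted p = 0.0323 by edgeR's quasi-likelihood test), and the call was lost when any 1 library other than control library 4 was left out (adjusted p up to 0.0854). Psma3 (chromosome 12, 70974621 to 70996347, plus strand) had 76.6, 84.9, 76.8 and 76.7 CPM in PUS10KO libraries 1 to 4, against 108.7, 131.3, 115.3 and 120.4 CPM in control libraries 1 to 4, again without overlap. Its log2 fold change was -0.59 (SE 0.11, adjusted p = 0.00686 by edgeR's quasi-likelihood test), and the call held without any 1 library. In the constitutive beta ring none of 7 subunits passed, over a log2 fold change range of -0.09 (Psmb1) to 0.29 (Psmb6).

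In the regulatory cap, 1 of 6 ATPases fell and none of 11 non-ATPases passed, while 7.11% of all genes tested fell and 5.90% rose. With the library number as a block, the non-ATPases Psmd3, Psmd7, Psmd11 and Psmd12 rose (edgeR, adjusted p = 0.0197, 0.0268, 0.0308 and 0.00233). Psmc2 also rose with the block, and Psmd8 and Psmc1 fell, where 19.1% of all genes rose and 19.9% fell. The ATPase Psmc1 (chromosome 12, 100110154 to 100123405, plus strand) had 173.4, 181.3, 142.6 and 141.8 CPM in PUS10KO libraries 1 to 4, against 215.3, 265.0, 225.2 and 225.9 CPM in control libraries 1 to 4, without overlap. Its log2 fold change was -0.54 (SE 0.13, adjusted p = 0.0264 by edgeR's quasi-likelihood test), and the call was lost without PUS10KO library 3 or 4 or control library 2, 3 or 4 (adjusted p up to 0.0869). The ATPase at the other end of the list, Psmc2, had a log2 fold change of 0.27 (SE 0.15, adjusted p = 0.304, and 0.024 with the block). The non-ATPase Psmd8, a subunit of the lid of the cap on chromosome 7 (29174188 to 29180701, minus strand), had the lowest log2 fold change of the family, at -0.89 (SE 0.26, adjusted p = 0.0541 by edgeR's quasi-likelihood test). It had 240.3, 187.1, 173.8 and 154.1 CPM in PUS10KO libraries 1 to 4, against 515.1, 376.8, 264.6 and 239.3 CPM in control libraries 1 to 4, with PUS10KO library 1 just above control library 4. Within each of the 4 numbers the PUS10KO library was the lower one, and adjusted p was 0.000521 with the library number as a block, 0.0103 by DESeq2 and 0.0365 by edgeR without control library 4. Psmd12, another subunit of the lid, had 226.8, 245.8, 169.7 and 156.4 CPM in PUS10KO libraries 1 to 4, against 158.7, 172.3, 123.9 and 125.1 CPM in control libraries 1 to 4 (log2 fold change 0.46, SE 0.19, adjusted p = 0.154, and 0.00233 with the block).

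Assembly factors and regulators passed the test in 1 case only, Psme2b, which rose, as did 5.90% of all genes tested. The activator gene Psme3 rose with the library number as a block (edgeR, adjusted p = 0.0218). None of the 3 chaperones of the cap passed, and their log2 fold changes ran between 0.22 (Psmd5) and 0.33 (Psmd10, adjusted p = 0.180 by edgeR's quasi-likelihood test and 0.023 with the block). None of the 4 chaperones of the core passed either, between -0.09 (Psmg2) and 0.31 (Psmg3). Psmf1, a regulator that binds the core, had a log2 fold change of 0.01 (SE 0.13, adjusted p = 0.978), and its sign turned when single libraries were left out. Psmc3ip matches the naming rule but is known as a factor of meiotic recombination, not a proteasome subunit. It had 24.8, 30.8, 21.4 and 21.6 CPM in PUS10KO libraries 1 to 4, against 13.0, 22.7, 16.3 and 14.4 CPM in control libraries 1 to 4, with overlap at control library 2 (log2 fold change 0.57, SE 0.21, adjusted p = 0.115, 0.00547 with the block and 0.0366 without control library 2). Of its 1291 exon bases, 385 overlap Mlx on the opposite strand.

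The 2 subunits that fell both lie on chromosome 12, where 41.2% of 405 tested genes fell and 2.96% rose, with a median log2 fold change of -0.60. The chromosome holds 1 other member, the alpha subunit Psma6, chosen for mention after its values were seen. It had 147.4, 150.3, 126.9 and 113.8 CPM in PUS10KO libraries 1 to 4, against 175.5, 180.0, 155.4 and 152.2 CPM in control libraries 1 to 4, without overlap (log2 fold change -0.30, SE 0.13, adjusted p = 0.179, and 0.0129 with the block). Relative to the chromosome's median the log2 fold changes were 0.01 for Psma3, 0.06 for Psmc1 and 0.30 for Psma6. Psmd8 does not share this position, and its chromosome 7 had a median of 0.15. Chromosome 11, which holds 10 members, had a median of 0.16 over all its genes and 0.28 over the members. The copy number of any chromosome was not measured.

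**Figure D4:**
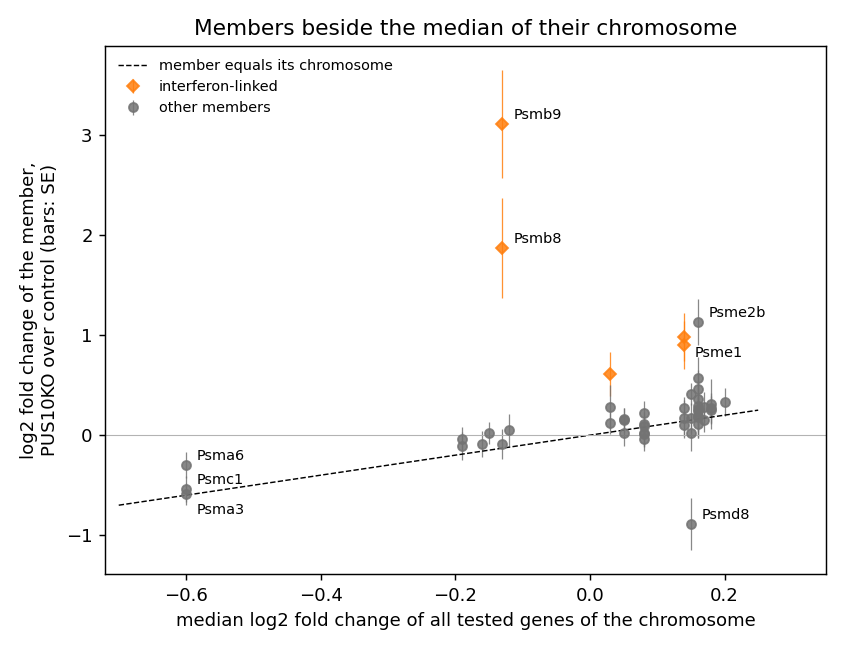
Log2 fold change of each member, PUS10KO over control with its SE (vertical axis), against the median log2 fold change of all tested genes of its chromosome (horizontal axis); the dashed line marks equal values. The 3 members on chromosome 12 stand at a median of -0.60, on or above the line, and Psmd8 on chromosome 7 lies farthest below it.

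Many cap subunits varied with library number in both genotypes. In both genotypes, libraries 1 and 2 were each above libraries 3 and 4 for 11 of the 17 cap subunits and for 1 of the 14 constitutive core subunits, against 21.8% of all genes tested. The opposite order, 1 and 2 each below 3 and 4 in both genotypes, held for 4 of the 48 members (Psmb1, Psme1, Psme2 and Psmd10), against 22.9% of all genes tested. The median log2 difference of numbers 1 and 2 over 3 and 4 was 0.40 in PUS10KO and 0.19 in control for the cap, 0.14 in PUS10KO and -0.06 in control for the core, and -0.33 in PUS10KO and -0.60 in control for the interferon-linked genes. The labels do not say what libraries of a number share.

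**Figure D5:**
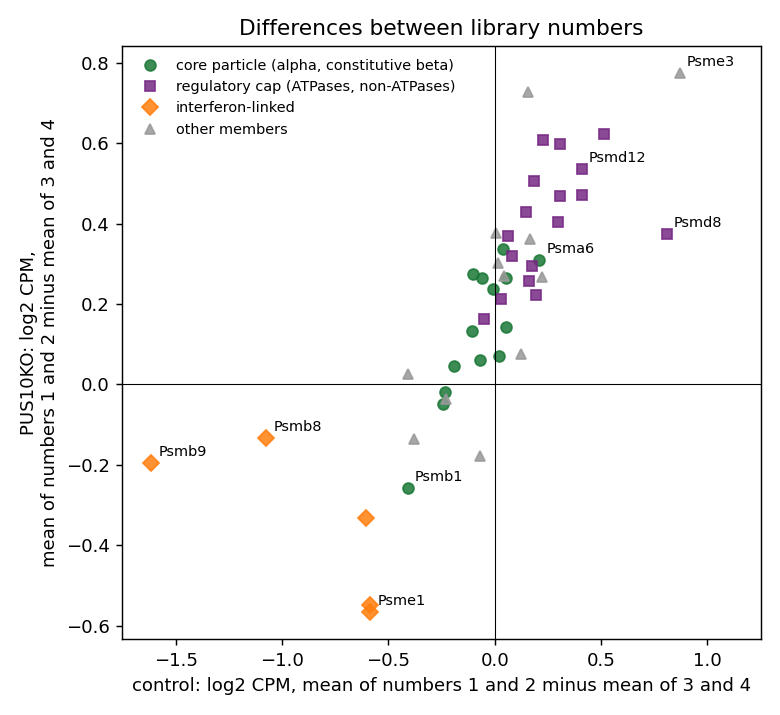
Difference of the mean log2 CPM of libraries 1 and 2 minus that of libraries 3 and 4, within PUS10KO (vertical axis) and within control (horizontal axis), for each member, marked by role. Most cap subunits lie above 0 in both genotypes, and the 5 interferon-linked genes lie below 0 in both.

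Genes that work with the proteasome were taken from lists outside the naming rule. Among 13 genes of peptide processing and loading, 2 rose and none fell. Tap1, the transporter gene beside Psmb9, had 77.4, 42.4, 40.2 and 50.1 CPM in PUS10KO libraries 1 to 4, against 14.9, 8.15, 15.6 and 17.3 CPM in control libraries 1 to 4, without overlap (log2 fold change 1.90, SE 0.29, adjusted p = 0.00312 by edgeR's quasi-likelihood test). Erap1, which trims peptides in the endoplasmic reticulum, averaged 61.4 ± 6.12 CPM in PUS10KO and 36.4 ± 7.35 CPM in control (SD, n = 4 each; log2 fold change 0.76, SE 0.16, adjusted p = 0.016 by edgeR), and its call was lost without control library 3 (0.0522). Among 13 interferon activators of immunoproteasome genes 1 rose, Nlrc5, the transactivator of MHC class I genes. It averaged 12.3 ± 4.64 CPM in PUS10KO and 1.15 ± 0.376 CPM in control (SD, n = 4 each; log2 fold change 3.40, SE 0.36, adjusted p = 0.000623 by edgeR).

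Among 10 genes that control proteasome gene expression none passed. Nfe2l1, the transcription factor that raises subunit transcription when proteasome activity is short, averaged 207.6 ± 29.0 CPM in PUS10KO and 256.0 ± 33.0 CPM in control (SD, n = 4 each; log2 fold change -0.30, SE 0.15, adjusted p = 0.236 by edgeR, and 0.0257 with the block). Stat3 averaged 281.2 ± 54.6 CPM in PUS10KO and 222.8 ± 50.9 CPM in control (SD, n = 4 each; log2 fold change 0.34, SE 0.20, adjusted p = 0.318 by edgeR, and 0.00709 with the block). None of 4 ubiquitin genes passed, with Rps27a at 525.1 ± 124.7 CPM in PUS10KO and 463.4 ± 87.2 CPM in control, and Ubb at 182.9 ± 10.3 CPM in PUS10KO and 183.1 ± 38.5 CPM in control (SD, n = 4 each). Of 18 tested subunits and partners not named Psm, 1 fell, beside 7.11% of all genes tested. This was the thioredoxin-like Txnl1, which binds the cap. It averaged 151.4 ± 27.3 CPM in PUS10KO and 244.3 ± 22.8 CPM in control (SD, n = 4 each; log2 fold change -0.69, SE 0.15, adjusted p = 0.0178 by edgeR), and the call was lost without PUS10KO library 3 or 4 (up to 0.0564).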

How the data were processed

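RNA of mouse embryonic fibroblasts was sequenced as 4 PUS10KO and 4 control libraries of stranded total RNA in paired-end mode, per the labels. The deposited table of raw counts, made by the authors, holds whole numbers for each gene and library. A second deposited table, normalized by the authors, appears from its range (5.13 to 18.12) to hold log2 values and served only as an alternative. Per the submitters' processing notes the tools were STAR 2.7.8a and DESeq2 and the build mm10; no source used here names the counter, its strand setting or the annotation.

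Counts were scaled by TMM, filtered with filterByExpr and tested with edgeR 4.0.16 (R 4.3.3) by its quasi-likelihood test, with genotype as the only term and Benjamini-Hochberg adjustment over 11909 genes at a threshold of 0.05. Alternatives used limma 3.58.1 and DESeq2 1.42.0, other scalings, no filter, the library number as a block, and each library left out. Same-numbered libraries deviated together (correlations of deviations from group means 0.681, 0.722, 0.633 and 0.687), each library most with its own number, so the numbers were taken as pairing the samples; the pairing comes from the numbers in the titles and these data. Libraries of different numbers also correlated within 3 and 4 (0.582 and 0.503). Within 1 and 2 the value was 0.303 for PUS10KO library 1 with control library 2. It was only 0.0416 for PUS10KO library 2 with control library 1. Every pair of libraries of a genotype differed by more than sampling noise (smallest chi-square 17.93 per degree of freedom), so all 8 were kept as separate samples. Scripts were tested on counts simulated from the means, library sizes and dispersions of these data. The main test recovered 8.96% of 1.5-fold, 47.8% of 2-fold and 100% of 4-fold changes there. A gene that did not pass is therefore not shown to be unchanged. Levels per kilobase used GENCODE M21 exon unions; gene names matched the annotation for 12044 rows by symbol and 153 by a RefSeq synonym. Counting error grows at low counts, as in Psmb8 and Psmb9.

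Members described in full were the interferon-linked genes, their constitutive counterparts, every other member that passed, and the highest and lowest log2 fold change in each role; up to 4 partner genes that passed in a list were named by lowest p or, where none passed, the 2 with the highest mean level. Some further members and partners were named because they passed with the library number as a block. The members and lists were chosen with earlier results of these data known. Epithelial markers (6) were not analysed here, and 2 of 6 endothelial markers were tested, none passing, with summed levels of 1.19 to 3.12 CPM in PUS10KO and 2.52 to 4.92 CPM in control libraries.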

Additional observations from a re-analysis of the deposited data

Results flagged for a closer look

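Psma3 stood at 84.9 CPM in PUS10KO library 2, against 76.6, 76.8 and 76.7 CPM in PUS10KO libraries 1, 3 and 4, a gap to its nearest neighbour that exceeded Dixon's critical value for 4 samples. It was the 1 such value in 44 groups tested over 22 members, and chance gives about 1 in 20 groups. All 4 PUS10KO values were below the lowest control value of 108.7 CPM.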

How the results depend on the processing

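Over all genes, 703 rose and 847 fell; by DESeq2 1146 rose and 1287 fell, with the replicate block 2273 rose and 2368 fell, and with the authors' normalized values in limma with the block 2389 rose and 2400 fell. Leaving out single libraries gave 492 to 638 that rose and 520 to 728 that fell (560 without PUS10KO library 2 and 520 without PUS10KO library 3). Of the members, 16 rose and 4 fell both with the replicate block and with the authors' values, and 2 to 5 rose and 1 to 2 fell with single libraries left out; members that rose numbered 2 without PUS10KO library 3 or 4 or control library 1 or 3, and 3 without PUS10KO library 1 or control library 2. The calls were alike but the sizes were not. With the authors' values the log2 fold change was 1.0 for Psmb9, 0.88 for Psmb8 and 0.51 for Psme2b, against 3.11, 1.87 and 1.13 in the main fit. For Psme1 it was 0.92, against 0.98. DESeq2 size factors, upper-quartile scaling, no filter, DESeq2 and limma voom kept the members' counts within 1.5 times. The sign-flip test over the 4 pairs gave 1.70 (Psmb8 to Psmb5) and 3.23 (Psmb9 to Psmb6) an adjusted p of 0.125, the smallest possible (exact). With single libraries left out these differences were 1.22 to 2.03 and 2.48 to 3.57 (exact permutation, adjusted p 0.0429 to 0.0857), and 0.35 to 0.68 for Psmb10 to Psmb7. With single libraries left out, the log2 fold change of Psmb1 was -0.17 to 0.01 (without control library 4) and that of Psmf1 -0.07 to 0.09, with -0.07 without PUS10KO library 1, -0.02 without control library 2 and -0.01 without control library 4. The cause was not tested. Low counts limit Psmb8 and Psmb9, at 9 and 1 counts in control library 2.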

Other observations

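The order of transcript levels within the proteasome, per kilobase of exon, was led by Psmb6 in both genotypes, at 311.2 ± 10.0 CPM per kilobase in PUS10KO and 255.2 ± 27.9 in control (SD, n = 4 each), followed by the alpha subunit Psma7 at 227.6 ± 12.8 in PUS10KO and 213.6 ± 19.8 in control. Psmb9 was the lowest of the 48 in both genotypes, at 2.43 ± 0.917 CPM per kilobase in PUS10KO and 0.273 ± 0.175 in control, and Psmb8 was next, at 3.64 ± 1.72 in PUS10KO and 0.982 ± 0.470 in control. Psmd8, a subunit of the lid, took rank 28 of 48 in PUS10KO and rank 9 in control, the largest shift of rank in the family. Psme1 took rank 24 in PUS10KO and 30 in control, and Psme2 rank 26 in PUS10KO and 31 in control. Neighbouring ranks often differed by less than the spread between libraries.

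The summed level of the 48 members was 8154, 8377, 7000 and 6943 CPM in PUS10KO libraries 1 to 4, against 7190, 7827, 6974 and 7089 CPM in control libraries 1 to 4, so the groups overlapped. The summed level of the 5 interferon-linked members was 225.6, 164.9, 249.4 and 301.3 CPM in PUS10KO libraries and 108.3, 90.1, 137.0 and 161.4 CPM in control libraries, without overlap. The median SD of log2 CPM over the members was 0.185 in PUS10KO and 0.154 in control, beside 0.255 in PUS10KO and 0.280 in control over all genes tested (with 0.5 CPM added for all genes only); the difference was not tested.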
